A study of Homo sapiens with 4 samples.

Results

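The genes described here were 10 of the oxygen-sensing pathway: EPAS1, HIF1A and HIF3A (the alpha subunits of the hypoxia-inducible factors), ARNT and ARNT2 (the beta subunits), the prolyl hydroxylases EGLN1, EGLN2 and EGLN3, the ubiquitin ligase subunit VHL, and the asparaginyl hydroxylase HIF1AN. They are 10 of the 60721 genes in the count table, and 8 of them were among the 16137 genes with enough counts to be tested. The set was chosen by the lower EPAS1 level in cells given TLN1 siRNA, so the values of EPAS1 are given as a description with no test. The rule of choice did not use those of the other 9 genes, but the members were chosen with earlier results of these data known.

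A hypoxia-inducible factor is a pair of proteins, an oxygen-regulated alpha subunit bound to a stable beta subunit. When oxygen is present the EGLN enzymes hydroxylate prolines of the alpha subunit, VHL then binds it, and the ligase around VHL marks it for destruction. HIF1AN hydroxylates an asparagine that otherwise lets the alpha subunit bind coactivators. Because this control acts largely on protein stability, transcript levels as measured here say nothing about the amount of HIF protein.

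RNA was sequenced from Hs578T, an established line from a human breast carcinoma, co-transfected with GFP and either a non-targeting RNA (SCR) or an siRNA against TLN1 (siTLN1), which encodes the integrin adaptor talin-1. Each RNA was given at 1.6 µM and cells were collected after 48 h, so all groups had been transfected and carried GFP. Each group held 2 libraries labelled as biological replicates, called a and b here. Nothing in the labels says that they came from separate cultures, so the p-values measure only the spread between these libraries, which may be technical.

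Total counts per library ran from 31854322 to 46353297. The 2 libraries of a group were further apart than counting error allows (chi-square over its degrees of freedom 13.3 for SCR and 18.3 for siTLN1). TLN1 itself had 868 and 874 CPM (counts scaled to library size and composition) in SCR against 51.9 and 44.8 in siTLN1, or 5.55% of the SCR mean. The mesenchymal character of the line was present, with VIM at 3811 to 3968 CPM. Of the 5 mesenchymal markers 2 were lower in siTLN1 (CDH2 and SPARC, log2 fold changes −0.89 and −0.48), beside 3.77% of all tested genes. The call of SPARC was lost without any 1 of the 4 libraries. None of the 4 luminal, 3 endothelial and 2 leukocyte markers with enough counts passed the test, and their levels were mixed. ESR1, PGR, CDH5 and CD3E had 0 to 7 counts in a library, whereas the luminal KRT18 had 104 to 131 CPM, KRT8 15.1 to 20.7 CPM and GATA3 9.75 to 13.8 CPM, and the endothelial PECAM1 had 2.86 to 4.47 CPM. Their part in the results was not tested. In bulk RNA, fewer cells of a kind and less RNA per cell cannot be told apart.

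EPAS1, the alpha subunit of HIF-2 (ENSG00000116016.14; GRCh38, chromosome 2, 46293667 to 46386697, plus strand), had 208 and 174 CPM in the SCR libraries and 70.9 and 63.8 CPM in the siTLN1 libraries. The lower SCR library lay well above the higher siTLN1 library. These levels rest on 6620 and 6053 counts in SCR and 2581 and 3000 in siTLN1. The SCR mean was 191 ± 24.4 CPM (SD, n = 2). The siTLN1 mean, 67.4 ± 4.99 CPM (SD, n = 2), is 35.3% of it, and the model put the log2 fold change at −1.50 (standard error 0.11). No base of the EPAS1 exons is shared with another annotated gene, so its count does not depend on how overlapping genes were handled.

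The EPAS1 transcript with the longest coding sequence holds 1 copy of the 7-base word GACAACA in its 3′ UTR. The other of the 2 annotated coding transcripts does not hold it, and which is expressed here was not measured. This word was known from an earlier look at these data to go with lower values in siTLN1, and is also present in the coding sequence of TLN1. The sites below are shown because the members and their pathway neighbours differ in whether they hold it. They are 30 bases each, 5′ to 3′ on the transcript, from GENCODE 29 (GRCh38), with the word in capitals. The EPAS1 site lies at base 1954 of the 2043 bases of its 3′ UTR, in exon 16 of 16, and the TLN1 site at base 5430 of 7626 coding bases, in exon 41 of 57.
TLN1, coding, chr9:35706026-35706055, minus strand: cgtagaggacctGACAACAaccctcaacga
EPAS1, 3′ UTR, chr2:46386602-46386631, plus strand: cgaattcctactGACAACAttataactgta
HIF1AN, 3′ UTR, chr10:100559953-100559982, plus strand: ttttaaaaaattGACAACAttaaagatcag
EGLN3, 3′ UTR, chr14:33925782-33925811, minus strand: ggcctcttcagtGACAACAatctccctgct
P4HA1, 3′ UTR, chr10:73007243-73007272, minus strand: gaaatgtgttgtGACAACAatgacctattt
HK2, 3′ UTR, chr2:74892305-74892334, plus strand: taaaacctcaggGACAACAtttttggtgta
STC2, 3′ UTR, chr5:173316219-173316248, minus strand: aaagcagccataGACAACAcacaaacgaga
Around the word, EPAS1, EGLN3 and P4HA1 each share 9 consecutive bases with TLN1, HIF1AN shares 8, and HK2 and STC2 share only the 7 of the word. KDR, a list gene that also holds the word in its 3′ UTR, is not shown, so these lengths cover chosen genes only. EPAS1, HIF1AN and EGLN3 were the 3 of the 10 members with the word in the 3′ UTR. The sequence of the siRNA is not given in the sources used here.

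HIF1A, the alpha subunit of HIF-1, was the most abundant member. It had 335 and 309 CPM in SCR and 371 and 354 CPM in siTLN1. Both siTLN1 libraries lay above both SCR libraries, by a margin smaller than the gap between the SCR libraries. Groups that do not overlap are common here, found for 48.4% of all tested genes. The log2 fold change was 0.17 (standard error 0.095; 95% interval −0.031 to 0.37), and edgeR's quasi-likelihood test gave an adjusted p of 0.346 over all genes. Of its exon bases, 5.15% are shared with other genes, among them the antisense HIF1A-AS1, which had 0 to 7 counts.

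The third alpha subunit, HIF3A, had 0 counts in all 4 libraries. A count of 0 allows up to 3 counts, or 0.0944 and 0.0861 CPM in SCR and 0.0824 and 0.0638 CPM in siTLN1, a limit for counting error only.

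EPAS1 and HIF1A pair with the same beta subunits. Their levels were compared per kb of exon, which allows for length but uses all annotated exons merged, not the transcript expressed. EPAS1 stood at 43.9% and 39.7% of the HIF1A level in the SCR libraries and at 13.5% and 12.8% in the siTLN1 libraries. EPAS1 thus made up 30.5% and 28.4% of the summed alpha level per kb in SCR and 11.9% and 11.3% in siTLN1. The sum over all alpha subunits was 93.6 and 83.9 CPM per kb in SCR and 81.8 and 77.4 CPM per kb in siTLN1. These shares contain EPAS1 and are a description with no test.

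The beta subunits carried values near each other in all libraries. ARNT, the common partner of both alpha subunits, had 45.3 and 40.9 CPM in SCR and 41.5 and 43.5 CPM in siTLN1, and the groups overlapped. Its log2 fold change was −0.020 (95% interval −0.23 to 0.19; adjusted p 0.943 by edgeR). ARNT2, a paralog best known from neural tissue, had 64.3 and 55.9 CPM in SCR and 60.8 and 56.8 CPM in siTLN1, again overlapping, with a log2 fold change of −0.032 (95% interval −0.25 to 0.18; adjusted p 0.910 by edgeR). The direction of both turned when single libraries were left out, from −0.092 to 0.056 for ARNT and from −0.13 to 0.073 for ARNT2. Per kb of exon, ARNT2 stood at 1.18 and 1.14 times ARNT in SCR and at 1.22 and 1.09 times in siTLN1. The alpha subunits summed to 6.10 and 6.18 times the beta subunits in SCR and to 5.72 and 5.49 times in siTLN1, on the same scale.

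As counted, the prolyl hydroxylases were the scarcest members with any counts. EGLN1 (PHD2), the main HIF prolyl hydroxylase in most cells and itself a HIF target, had 5.29 and 5.69 CPM in SCR and 3.90 and 4.94 CPM in siTLN1. The siTLN1 libraries were lower without overlap, but they differed from each other by more than the nearest libraries of the 2 groups did. The log2 fold change was −0.30 (standard error 0.16; 95% interval −0.65 to 0.045; adjusted p 0.331 by edgeR). EGLN2 (PHD1) had 2.99 and 3.07 CPM in SCR and 3.41 and 2.75 CPM in siTLN1, so the siTLN1 libraries lay on both sides of SCR. Its log2 fold change was 0.0099 (95% interval −0.39 to 0.41; adjusted p 0.988 by edgeR) and ran from −0.14 to 0.17 as single libraries were left out.

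EGLN3 (PHD3), which hypoxia induces in many cells, had 5 and 10 counts in SCR and 6 and 2 in siTLN1. That is 0.157 and 0.287 CPM in SCR and 0.165 and 0.0426 CPM in siTLN1, too few to be tested. The exact Poisson 95% intervals, which cover counting error only, were 0.0511 to 0.367 and 0.138 to 0.528 CPM in SCR and 0.0605 to 0.359 and 0.00515 to 0.154 CPM in siTLN1. The intervals of the 2 groups overlap. With no filter, the fit put EGLN3 at a log2 fold change of −1.19 (adjusted p 0.576 by edgeR), so a difference of this size was not resolved at this depth.

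The levels of EGLN1 and EGLN2 depend on the counting. Of the EGLN1 exon bases 55.8% are shared with ENSG00000287856, a gene on the same strand with 0 or 1 count, and 30.6% of the EGLN2 exon bases are shared with RAB4B-EGLN2, on the same strand with 0 counts. Per the file header no option for reads that hit several genes was set, and featureCounts leaves such reads out by default, so both levels may be too low. How many reads were lost was not measured.

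VHL, the substrate-binding part of the ligase, had 23.6 and 22.0 CPM in SCR and 26.5 and 24.7 CPM in siTLN1. The siTLN1 libraries were above the SCR libraries without overlap. The log2 fold change was 0.17 (standard error 0.11; 95% interval −0.054 to 0.39; adjusted p 0.411 by edgeR). Of the VHL exon bases 23.7% are shared with ENSG00000287086 on the opposite strand, which had 137 and 161 counts in SCR and 151 and 261 in siTLN1. The libraries are stranded but were counted without a strand option, so reads of that stretch cannot be told apart by strand.

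HIF1AN (FIH) had 53.5 and 50.4 CPM in SCR and 59.0 and 60.2 CPM in siTLN1. Its siTLN1 libraries lay above SCR without overlap and close to each other. The log2 fold change of 0.20 (standard error 0.095, 95% interval −0.0027 to 0.40) had an adjusted p of 0.260 by edgeR. HIF1AN carries the word GACAACA near the end of its long 3′ UTR, at base 11828 of 11861, in 1 of its 2 annotated coding transcripts. Only 2.34% of its exon bases are shared, with NDUFB8 on the opposite strand.

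Among all tested genes 6.07% passed the test at an adjusted p of 0.05, 2.30% higher and 3.77% lower in siTLN1. Of the 7 tested members other than EPAS1, 0 passed with edgeR, 0 had an unadjusted p under 0.05, and 0 passed with DESeq2 or limma-trend. With the replicate number added as a term, limma-trend called 2 of the 7, HIF1A and HIF1AN, beside 3650 of all 16137 tested genes. No label says that the numbers pair libraries. A p above the threshold does not show that levels were equal: the 95% intervals reached furthest for EGLN1 and EGLN2, the scarcest tested members. The median log2 fold change of the 7 was 0.0099, beside 0.0033 over all tested genes. Of these 7 members, 4 had groups that did not overlap, beside 48.4% of all tested genes.

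**Figure D1:**
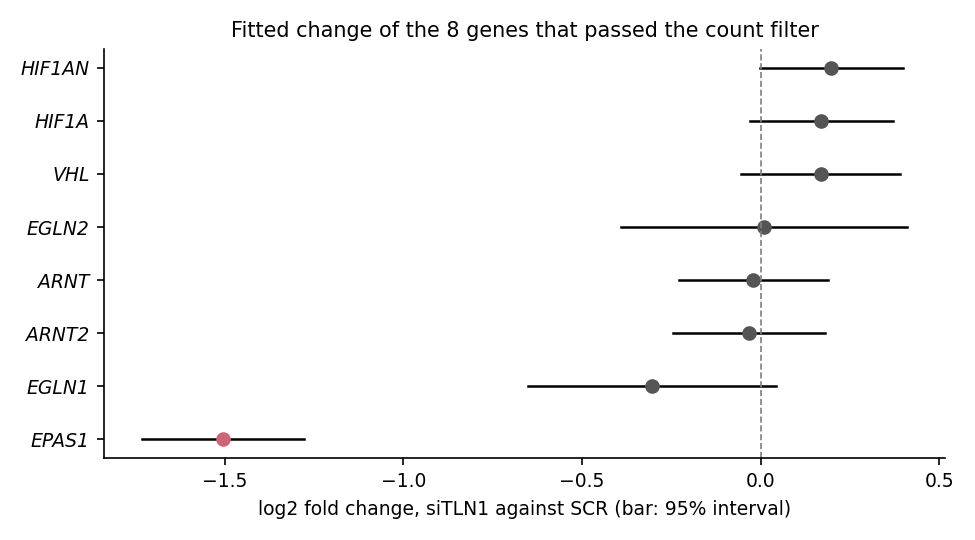
Fitted log2 fold changes, siTLN1 against SCR, of the 8 members with enough counts (horizontal axis), with bars for the 95% interval. EPAS1, which chose the set, stands at −1.50, and its bar is a description with no test. The intervals of the other 7 all include 0, and their values run from −0.30 (EGLN1) to 0.20 (HIF1AN).

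Per kb of exon the mean SCR levels ran in the order HIF1A (62.6 CPM per kb), EPAS1 (26.2), ARNT2 (7.77), ARNT (6.69), VHL (5.41), HIF1AN (3.74), EGLN1 (1.02), EGLN2 (0.461) and EGLN3 (0.030), with HIF3A at 0. In SCR the library ranges of no neighbours in this order overlapped. Counted per kb of exon that no other gene shares, however, VHL (7.34 and 6.83 in SCR) overlapped ARNT (7.03 and 6.35), so these neighbours are not ordered beyond their spread. On that scale EGLN1 stood at 2.22 and 2.39 CPM per kb in SCR and EGLN2 at 0.655 and 0.673, in the same places in the order. It shortens the length but does not restore reads that were left out, so these places are not settled. The order by mean was the same in siTLN1, but EPAS1 (9.24 CPM per kb) then stood close above ARNT2 (7.60), with libraries at 9.72 and 8.76 against 7.86 and 7.34.

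**Figure D2:**
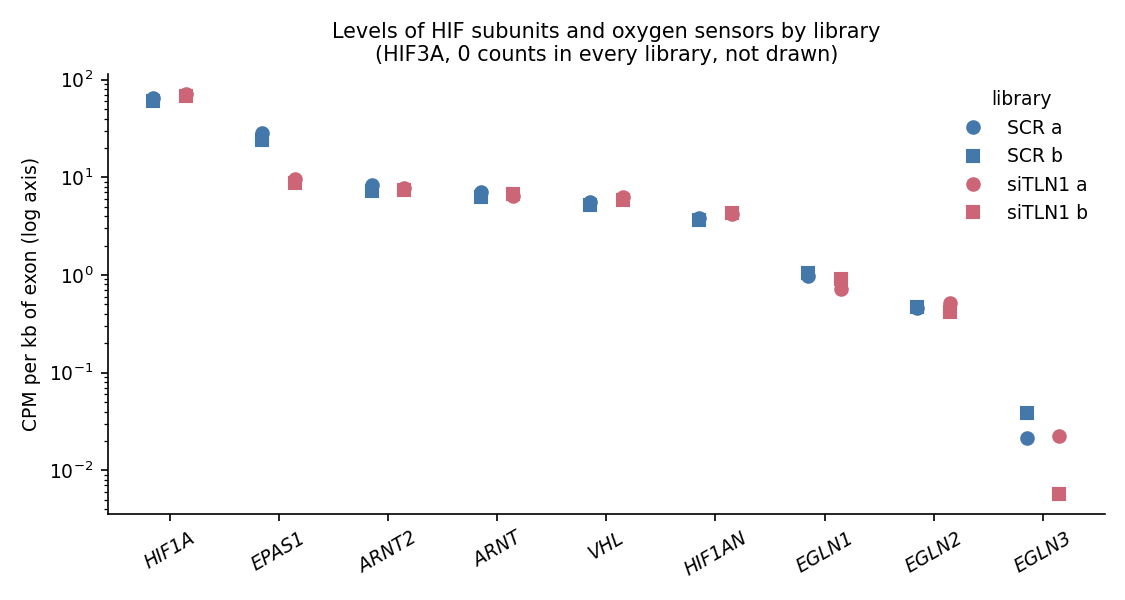
CPM per kb of exon (vertical log axis) of each member in each library, with SCR in blue, siTLN1 in red, library a as circles and b as squares, ordered by the SCR mean. EPAS1 moves from 28.6 and 23.8 in SCR to 9.72 and 8.76 in siTLN1, while ARNT2, ARNT, VHL and HIF1AN keep between 3.63 and 8.31 in all libraries.

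The rest of the pathway was described through 6 lists written from general knowledge, 112 genes of which 106 were tested. Of these, 4 were higher and 6 lower in siTLN1, 9.43% in all beside 6.07% of all tested genes. An unadjusted p under 0.05 was found for 24 (22.6%), beside 3196 (19.8%) of all tested genes. Their median log2 fold change was 0.029, beside 0.0033 over all tested genes. The all-gene values apply beside the counts of each list that follows. Without siTLN1 library a, 4 of the 106 were called, 2 higher and 2 lower, and without siTLN1 library b the lower genes numbered 3.

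The ligase that VHL belongs to, and its helpers, showed no called gene among 7 (0 with an unadjusted p under 0.05; median log2 fold change −0.021). USP33, a deubiquitinase bound by VHL, had 124 and 120 CPM in SCR and 119 and 122 CPM in siTLN1. ELOC, the elongin subunit that joins VHL to the cullin, had 90.4 and 93.5 CPM in SCR and 87.3 and 97.1 CPM in siTLN1. In both genes the groups overlapped.

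Among 20 cofactors and modulators of the alpha subunits edgeR called 0, with 3 at an unadjusted p under 0.05 and a median of 0.039, limma-trend called 0 and DESeq2 called 1. That gene was HSP90AB1, an HSP90 chaperone, with 2548 and 2642 CPM in SCR and 3135 and 3308 CPM in siTLN1 (log2 fold change 0.31; adjusted p 0.101 by edgeR and 0.0198 by DESeq2). HSP90AA1, the other cytosolic HSP90, had 1811 and 1638 CPM in SCR and 1500 and 1586 CPM in siTLN1 (−0.16; adjusted p 0.441 by edgeR).

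Other transcription factors of the bHLH-PAS family, to which HIF subunits belong, had 9 of 11 members tested. Of the 9, 1 was higher and 1 lower (22.2% in all), 3 (33.3%) had an unadjusted p under 0.05, and the median was −0.072. NPAS2, a partner of the circadian factor BMAL1, had 55.7 and 54.8 CPM in SCR and 42.0 and 41.9 CPM in siTLN1 (log2 fold change −0.40, adjusted p 0.0187 by edgeR). SIM2, a developmental factor that pairs with ARNT, had 39.6 and 33.1 CPM in SCR and 48.3 and 45.6 CPM in siTLN1 (0.37, adjusted p 0.0498 by edgeR). The call of SIM2 was lost with DESeq2 (adjusted p 0.0585), limma-trend (0.0514) and unfiltered low counts (0.0914). It was also lost with edgeR without SCR library b (0.331), siTLN1 library a (0.333) or siTLN1 library b (0.0750). That of NPAS2 was lost without siTLN1 library a (adjusted p 0.170) or b (0.0976). Opposite-strand genes share 9.18% of the NPAS2 exon bases.

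Of 20 other oxygen-dependent dioxygenases, enzymes of the same chemistry as the EGLNs, 1 was lower and none higher (5% in all). An unadjusted p under 0.05 was found for 5 (25%), and the median was 0.016. P4HA1, the catalytic subunit of collagen prolyl 4-hydroxylase and a known hypoxia target, had 126 and 129 CPM in SCR and 45.5 and 64.5 CPM in siTLN1. Both siTLN1 libraries were far below SCR but differed from each other. P4HA1 fell by 1.21 on the log2 scale (standard error 0.14, adjusted p 0.000275 by edgeR), and it was the called gene among the 4 of the 106 tested list genes with the word GACAACA in the 3′ UTR. The other 3, HK2, KDR and STC2, did not pass.

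Among 25 glycolytic and other genes that lean on HIF1A, 2 were lower and none higher (8% in all). An unadjusted p under 0.05 was found for 5 (20%), and the median was 0.015. BNIP3L, a mitophagy receptor, fell from 220 and 228 CPM in SCR to 122 and 145 CPM in siTLN1 (log2 fold change −0.75, adjusted p 0.000237 by edgeR), with 7.95% of its exon bases shared with a gene on the opposite strand. PFKL, the liver-type phosphofructokinase, fell from 137 and 151 CPM to 109 and 114 CPM (−0.37, adjusted p 0.0265 by edgeR). The call of PFKL was lost when low counts were not filtered (adjusted p 0.0657), and without SCR library b (0.164), siTLN1 library a (0.249) or siTLN1 library b (0.0674). HK2, which primes glucose for glycolysis and was taken up after its values were seen because it holds the word, had 69.0 and 90.4 CPM in SCR and 72.5 and 90.2 CPM in siTLN1 (0.030). Its b libraries were the higher ones in both groups.

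Targets held to lean on EPAS1 or to be shared by both alpha subunits numbered 29, of which 25 were tested (EPO, ANGPT2, TGFA and PLIN2 had too few counts). Of these, 3 were higher and 2 lower (20% in all), 8 (32%) had an unadjusted p under 0.05, and the median was 0.17. Over all tested genes 6.07% were called, 19.8% had such a p, and the median was 0.0033. EDN1, the vasoconstrictor endothelin-1, rose from 59.3 and 59.6 CPM in SCR to 117 and 98.2 CPM in siTLN1 (log2 fold change 0.85, adjusted p 7.73e-05 by edgeR). IL6, an inflammatory cytokine, fell from 53.6 and 62.8 CPM to 31.9 and 42.6 CPM (−0.64, adjusted p 0.0128 by edgeR). The IL6 call was lost without siTLN1 library a (adjusted p 0.121), and 20.7% of its exon bases are shared with the opposite strand.

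A further 2 called targets are named after their values were seen. ADM, the vasodilator peptide adrenomedullin, rose from 88.7 and 101 CPM in SCR to 130 and 125 CPM in siTLN1 (log2 fold change 0.43, adjusted p 0.0131 by edgeR). Its call was lost without SCR library a (adjusted p 0.0860) or siTLN1 library a (0.142). FLT1, the VEGF receptor 1, was rare, at 0.598 and 0.660 CPM in SCR and 0.165 and 0.234 CPM in siTLN1 (−1.61, adjusted p 0.0399 by edgeR). That call was lost without any 1 of the 4 libraries (adjusted p 0.0503 to 0.194) and with all of them when low counts were kept (0.0630), and DESeq2 gave it no adjusted p. The list thus held called genes in both directions. Any link of these genes to the EPAS1 level was not tested.

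A few well-known targets, likewise chosen after their values were seen, did not pass. VEGFA, the angiogenic growth factor, had 223 and 295 CPM in SCR and 251 and 312 CPM in siTLN1 (log2 fold change 0.12, adjusted p 0.705 by edgeR). DDIT4, an inhibitor of mTOR signalling, had 13.1 and 25.0 CPM in SCR and 11.5 and 21.8 CPM in siTLN1 (−0.19). In both genes library b was the higher of each group, and the gap between a and b exceeded that between the groups, so their signs turned as single libraries were left out. STC2, a secreted glycoprotein with the word in its 3′ UTR, had 1346 and 1407 CPM in SCR and 1698 and 1558 CPM in siTLN1 (0.24, adjusted p 0.197 by edgeR).

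**Figure D3:**
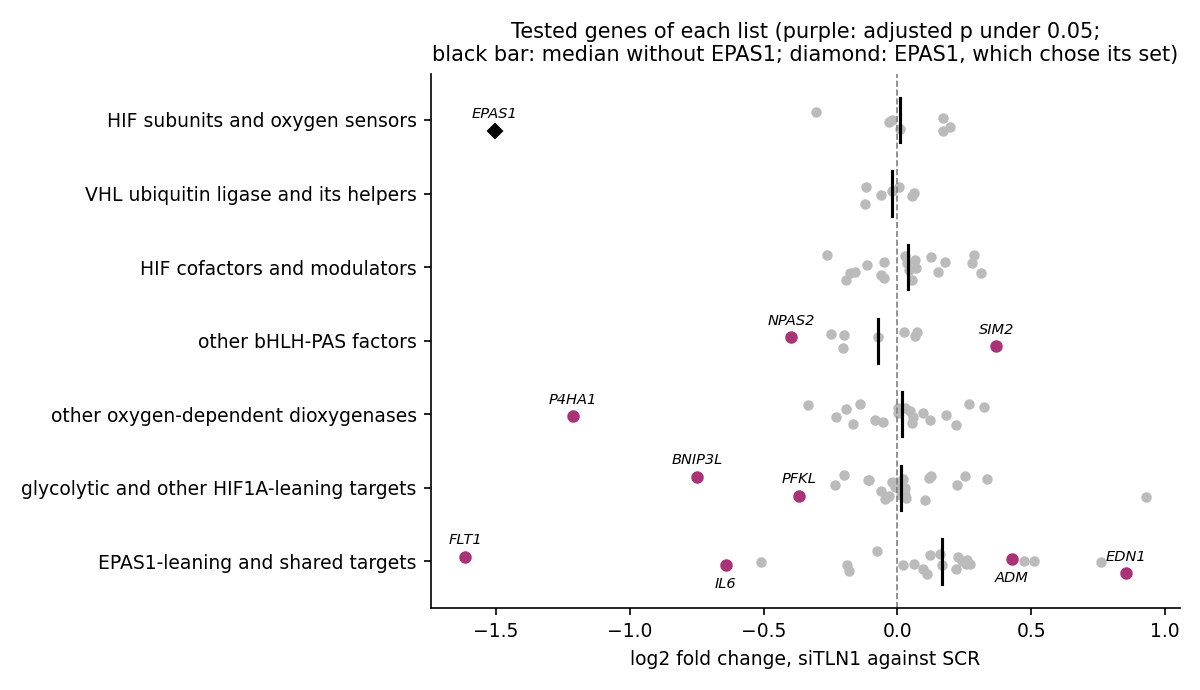
Log2 fold changes, siTLN1 against SCR (horizontal axis), of the tested genes of the member set and the 6 pathway lists, 1 point a gene, spread vertically for legibility. Purple points passed the test, the black diamond is EPAS1, and black bars are medians without EPAS1. In the last list 1 called gene, counted in the text and in the median, is not drawn. The called genes are few or absent in each list. Over the lists together they lie on both sides of 0, with P4HA1 at −1.21 and EDN1 at 0.85. In the dioxygenase and HIF1A-leaning lists they lie below 0 only.

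The genes whose pattern was most like that of EPAS1 were sought among 10475 genes with a symbol and at least 5 CPM on average, by the Euclidean distance of log2 CPM over the 4 libraries after each gene's own mean was subtracted. The nearest was MYPN, the sarcomere protein myopalladin, at a distance of 0.151, with 14.2 and 11.2 CPM in SCR and 4.18 and 3.89 CPM in siTLN1. Next came KCNK2, a mechanosensitive potassium channel (0.217), with 43.6 and 42.8 CPM in SCR and 14.3 and 13.4 CPM in siTLN1. CCNYL1, a cyclin Y paralog (0.239), had 59.9 and 49.6 CPM in SCR and 18.7 and 21.2 CPM in siTLN1. MYBL2, a cell-cycle transcription factor (0.247), had 224 and 214 CPM in SCR and 69.7 and 74.6 CPM in siTLN1. FZD6, a Wnt receptor (0.247), had 209 and 183 CPM in SCR and 88.2 and 75.5 CPM in siTLN1. Their log2 fold changes ran from −1.66 for MYPN to −1.26 for FZD6. The distances rest on 4 libraries and were ranked on the same contrast that chose EPAS1, so they carry no test.

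**Figure D4:**
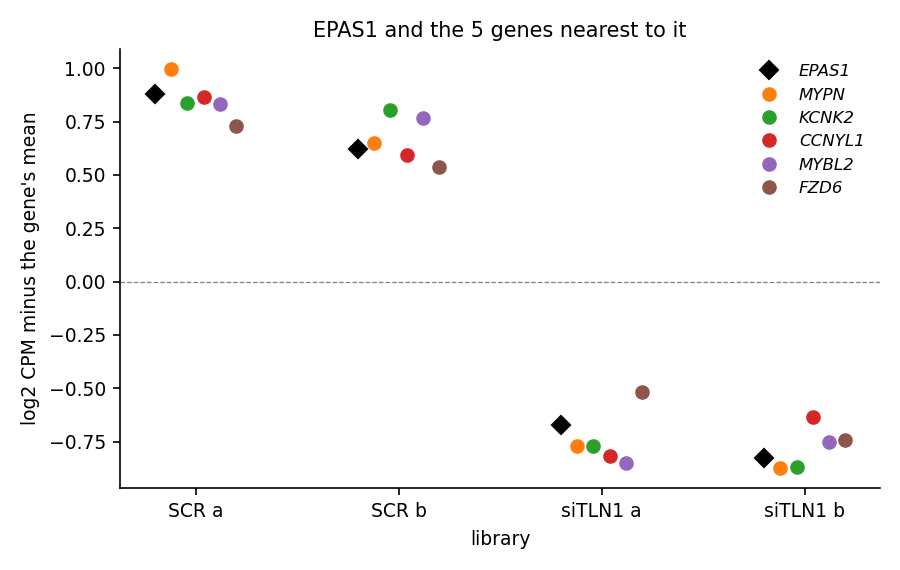
Log2 CPM minus the gene's own mean over the 4 libraries (vertical axis) in each library, for EPAS1 (black diamonds) and the 5 genes nearest to it (coloured circles). All 6 genes stand above their mean in both SCR libraries and below it in both siTLN1 libraries, as the choice by distance requires.

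All 5 of these genes hold the word GACAACA. KCNK2, CCNYL1 and FZD6 hold it in the 3′ UTR, and MYPN and MYBL2 in the coding sequence only. Of the pathway-list and marker genes called lower, P4HA1 and CDH2 hold it in the 3′ UTR. NPAS2 and SPARC hold it in the coding sequence only, and BNIP3L, PFKL, IL6 and FLT1 in neither. Over the 12863 tested coding genes, TLN1 left out, 21.9% hold it in either region, beside 48.6% of the genes called lower in siTLN1 and 17.9% of those called higher. The word was known from an earlier look at these data to go with lower values, and the 5 genes were ranked on the contrast that chose EPAS1. These shares and the counts of the next paragraph are therefore a description with no test.

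Among the same coding genes, 941 have the word in the 3′ UTR, and 158 of these (16.8%) were lower in siTLN1 and 19 (2.02%) higher, with a median log2 fold change of −0.098. With the word in the coding sequence only, 116 of 1872 (6.20%) were lower and the median was −0.024. With neither, 290 of 10050 (2.89%) were lower and the median was 0.019. The 3′ UTR of the first group is also longer, with a median of 2964 bases against 866 in the last. Values as low as that of EPAS1 or lower were found for 7 of 941, 7 of 1872 and 10 of 10050 genes of the 3 groups, EPAS1 included. Most genes with the word were not called, HIF1AN among them, and the part of the word in the values of EPAS1 was not tested.

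**Figure D5:**
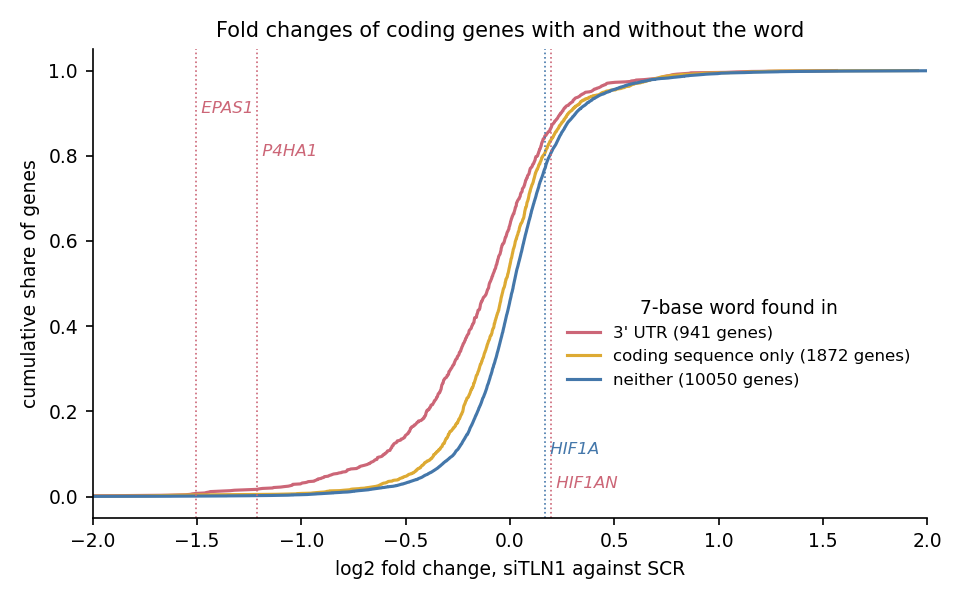
Cumulative share of tested coding genes (vertical axis) by log2 fold change, siTLN1 against SCR (horizontal axis, drawn from −2 to 2), for genes with the word in the 3′ UTR (red), in the coding sequence only (yellow) or in neither (blue). The red curve lies to the left, with a median of −0.098 against 0.019 for the blue, and dotted lines mark EPAS1 (−1.50), P4HA1 (−1.21), HIF1A (0.17) and HIF1AN (0.20).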

How the data were processed

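The deposited gene counts come from featureCounts 2.0.0, run on read pairs against GENCODE 33 (GRCh38) without a strand setting, per the file headers. The submitters' processing notes name STAR 2.7.9a and edgeR 3.34.1. Exon length in bases is another column of the deposited table. The authors also deposited log2 CPM values for 16137 genes, whose making is not described in the sources used here beyond the tools named. The numbers in the count column names match no label, so columns were mapped to groups only.

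Counts were filtered (filterByExpr, minimum count 10, total 15), scaled by TMM and tested with edgeR 4.0.16 (R 4.3.3; robust glmQLFit, glmQLFTest), with Benjamini-Hochberg adjustment over all 16137 genes and a threshold of 0.05. The procedure was tested on simulated data. SDs describe the 2 libraries per group. The biological coefficient of variation was 0.0805. For 1 gene taken alone, exact permutation at this size cannot go below p = 0.333. Alternatives used RLE or no scaling, other filters, DESeq2 1.42.0, limma-trend (limma 3.58.1), each library left out and a replicate block.

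The word GACAACA was sought on the sense strand of 1 transcript per gene (longest coding sequence) of GENCODE 29, in Python 3.11.15, an older release than the one counted on.

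The members and lists were chosen with earlier results of these data known. Named genes are the 10 members, TLN1, up to 3 called genes with the smallest p from each pathway list (if none, the 2 most abundant), and the 5 genes nearest to EPAS1; of the genes this rule selects, 1 is not reported here. Marker lists were mesenchymal, luminal, endothelial and leukocyte.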

Additional observations from a re-analysis of the deposited data

How the results depend on the processing

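EPAS1 kept a log2 fold change of −1.51 to −1.49 under the other scalings, filters and tools and −1.63 to −1.37 with single libraries left out. In these fits a lone library was assumed to vary like the other group. The all-gene count of 980 ran from 663 to 1253 over settings with all libraries, and only the count of lower genes moved past 1.5 times, to 389 without a filter. With single libraries left out it ran from 347 (without siTLN1 library a) to 1116, with 103 to 503 higher and 244 to 613 lower. The 10 pathway genes became 4 to 10, with 2 to 5 higher and 2 to 5 lower. Signs turned under these omissions for ARNT (−0.092 to 0.056), ARNT2 (−0.13 to 0.073), EGLN2 (−0.14 to 0.17), USP33 (−0.044 to 0.0028), ELOC (−0.072 to 0.078), VEGFA (−0.066 to 0.34), DDIT4 (−0.73 to 0.35) and HK2 (−0.15 to 0.24). With the replicate block (limma-trend), 3650 genes were called, 1720 higher and 1930 lower, and in the pathway lists 32, 18 higher and 14 lower. HIF1A (0.17, adjusted p 0.0388) and HIF1AN (0.20, adjusted p 0.0207) then passed, as did HSP90AB1 (adjusted p 0.00658) and STC2 (adjusted p 0.0171). No label says that a number marks a shared preparation, but the count column names carry numbers that recur in both groups, with no stated meaning. Across genes, differences between replicates correlated between the groups at 0.19, and at 0.535 among genes at 5 CPM or more. On plain CPM, EPAS1 in SCR stood at 59.2% of HIF1A. With the word sought in any annotated transcript, 14.2% of the genes holding it in the 3′ UTR were lower. DESeq2 gave no adjusted p for 3442 genes. Low counts limit EGLN3 and HIF3A, and standard errors were widest for EGLN1 and EGLN2, the scarcest tested members.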
